A study of Drosophila melanogaster with 2 samples.

Results

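The regions described here are Rel ChIP-seq summits that lay at divergent gene pairs, where the start of a gene on the minus strand and the start of a different gene on the plus strand fell within 500 bp of the same summit. They were selected on rank and position: of the 2133 peaks that the authors kept after the irreproducible discovery rate (IDR) procedure, ranked by the signal of the pooled reads, those after rank 200 were taken, and the summits with both kinds of start were kept. This gave 140 summits of 1933 (7.24%, 95% interval 6.13 to 8.49). Another 653 of the 1933 (33.8%) had a start within 500 bp but no such pair, and are called promoters of 1 direction; the remaining 1140 (59.0%) had no start within 500 bp. The intervals given for shares are exact (Clopper-Pearson) and cover counting error only. Rank and distance to a start chose the summits, so neither is a result.

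Chromatin of whole Drosophila melanogaster larvae of the wandering stage was precipitated with an antibody to GFP, with males and females pooled and the age given as unknown. Both biological replicates, numbered 2 and 3 in the labels, came from 1 transgenic line in which Rel carries GFP at its C terminus, and no second genotype, treatment or infection is named. Fragments were sonicated to a range of 200 to 800 bp, and the peaks therefore describe the tagged protein at that resolution, in all larval tissues together. Binding in few cells and weak binding in many cells cannot be told apart in such material, the files hold no read counts, and the depth of the libraries is unknown.

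Rel (Relish) is the NF-kappaB factor of the Imd branch of fly immunity, which in response to bacteria is cut so that its DNA-binding part can enter the nucleus. A GFP at the C terminus stays with the C-terminal piece when the protein is cut. The peaks do not tell whether the protein recovered by this tag was whole Rel or that piece. Many fly genes stand head to head, with the starts of both a short distance apart, so that a single stretch of DNA serves as promoter in both directions. Such pairs are frequent among genes of general cell functions, and strings such as the DNA replication-related element (DRE), which the factor DREF binds, are common at their starts.

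The stretch between the starts held 103 of the 140 summits, and 4 examples, each with its summit inside, follow. They are the 3 highest-ranked head-to-head pairs with starts at most 300 bp apart, no exon of a protein-coding gene between them and sequence shown here, and then the highest-ranked such pair with a DRE string. Each is the plus strand from the base after the minus-strand start to the base before the plus-strand start, taken from the RefSeq copy of the dm6 assembly. Capitals mark TATAAA and TATCGATA (DRE), each searched on both strands.
Mkk4 and SLIRP2, chr3R:8650797-8651083: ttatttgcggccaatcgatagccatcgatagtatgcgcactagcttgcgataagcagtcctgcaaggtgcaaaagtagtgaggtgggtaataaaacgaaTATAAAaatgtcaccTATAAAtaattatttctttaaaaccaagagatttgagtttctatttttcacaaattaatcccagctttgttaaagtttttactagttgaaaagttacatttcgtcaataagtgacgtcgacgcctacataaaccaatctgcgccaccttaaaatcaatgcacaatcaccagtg
alphaCOP and CG13919, chr3L:1645200-1645466: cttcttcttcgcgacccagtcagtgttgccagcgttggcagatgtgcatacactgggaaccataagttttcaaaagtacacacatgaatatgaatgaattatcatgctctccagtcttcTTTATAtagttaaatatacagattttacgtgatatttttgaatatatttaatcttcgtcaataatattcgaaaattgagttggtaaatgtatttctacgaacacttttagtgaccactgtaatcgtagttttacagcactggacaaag
CG7601 and CIA30, chr3R:29736746-29736964: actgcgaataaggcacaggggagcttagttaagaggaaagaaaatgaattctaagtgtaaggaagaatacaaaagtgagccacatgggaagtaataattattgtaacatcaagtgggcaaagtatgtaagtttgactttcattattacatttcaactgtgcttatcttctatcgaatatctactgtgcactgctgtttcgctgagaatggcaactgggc
fws and Lamtor3, chr2L:17481030-17481230: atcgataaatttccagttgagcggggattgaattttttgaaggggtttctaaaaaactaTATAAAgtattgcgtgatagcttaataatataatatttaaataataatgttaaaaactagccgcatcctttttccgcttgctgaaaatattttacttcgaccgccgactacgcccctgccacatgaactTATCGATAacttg

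The Mkk4 and SLIRP2 stretch held 2 TATAAA matches, the alphaCOP and CG13919 stretch 1, and the CG7601 and CIA30 stretch none of either string. The stretch between fws and Lamtor3 held 1 match of each. The GC content of the 4 stretches was 36.2%, 34.5%, 37.9% and 34.3% in the order shown, and the summits lay at their bases 163, 121, 13 and 112.

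The DRE string is the element best known from divergent fly promoters, and of the 12 summits with it within 100 bp its surroundings are shown for 6. Capitals mark TATCGATA, which reads the same on both strands.
fws and Lamtor3, chr2L:17481207-17481236: ccacatgaactTATCGATAacttgaggcag
CG9636 and CG18749, chr3R:8243829-8243858: gaacagaagtcTATCGATAagtggcttcga
Mob2 and CG7394, chr3L:11562653-11562682: aaccctgagtcTATCGATAatccaacagct
CG3740 and hfw, chrX:1669298-1669327: atcgacgtttaTATCGATAtatggccttaa
CG14817 and CG14805, chrX:1877307-1877336: atggtttcgctTATCGATAggaaactaccg
Rab8 and Usp32, chr3L:19871078-19871107: gcgccgtcgtcTATCGATAgcttatcgtac

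The string began 77 bases to the right of the summit at both fws and Lamtor3 and Mob2 and CG7394, and 20 bases to the right at CG3740 and hfw. At CG9636 and CG18749, CG14817 and CG14805, and Rab8 and Usp32 its first base had an offset of -82, -20 and -32 bases from the summit. Among these 6 it lay on both sides of the summit.

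The nearest pair stood head to head at 133 of the 140 summits (95%, 90.0 to 98.0), meaning that the minus-strand start had the smaller coordinate and the genes ran away from each other. At the other 7 the genes overlapped at their starts, by 33 to 268 bp. The widest overlap was that of Pgk, the glycolytic phosphoglycerate kinase, and Bacc (rank 724), and the others included Uba2, a subunit of the SUMO-activating enzyme, with Cds, which makes CDP-diacylglycerol (56 bp, rank 354). Exactly 2 protein-coding genes had a start within 500 bp at 132 summits (94.3%). The distance between the starts had a median of 274 bp, with quartiles at 185 and 404 bp and a range of 12 to 830 bp. The widest head-to-head pair was that of the tetraspanin genes Tsp42Eq and Tsp42Er (830 bp, rank 1100).

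**Figure D1:**
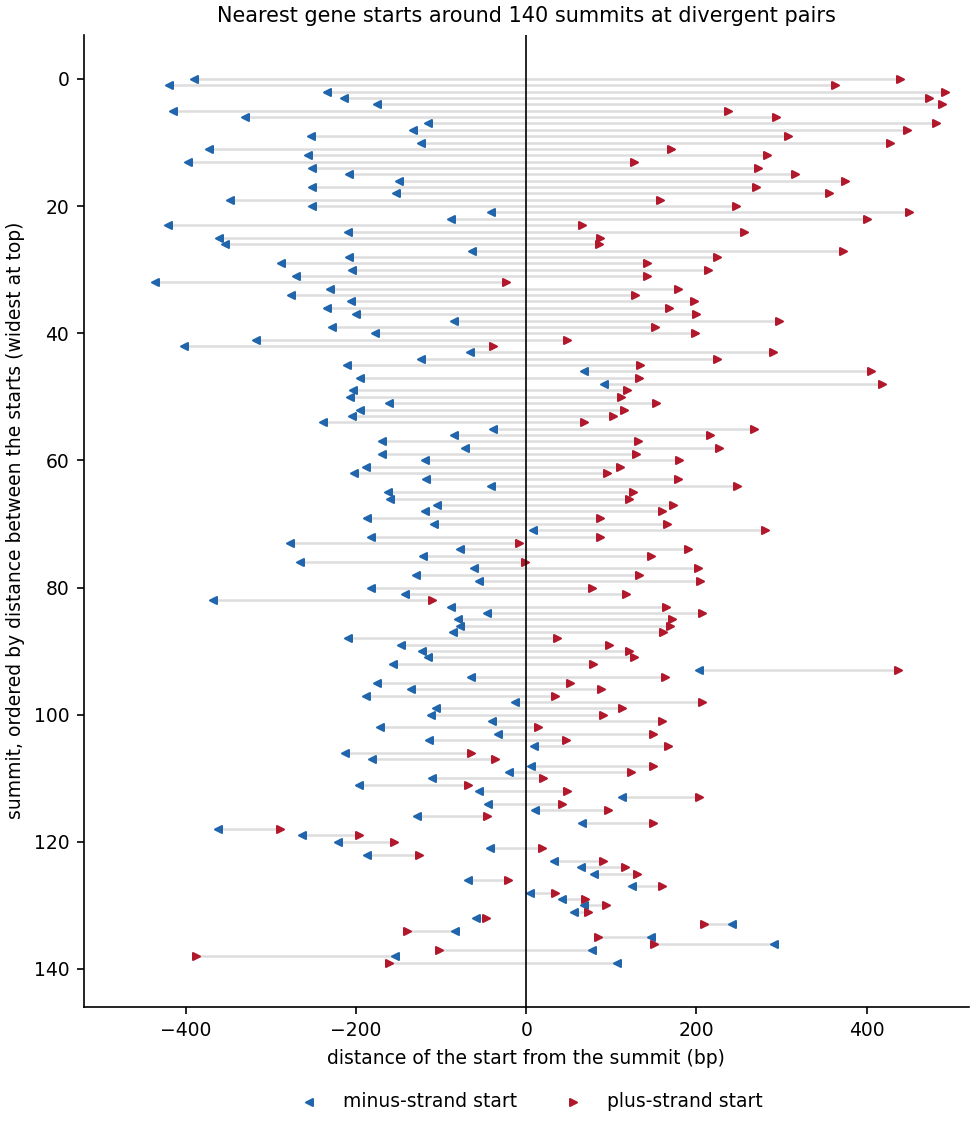
Each row is 1 of the 140 summits, placed at 0, with the minus-strand and plus-strand start of its nearest pair as points at their distance in bp; rows are ordered by the distance between the starts, with the widest pairs at the top and the overlapping pairs at the bottom. The minus-strand starts lie mainly to the left of the summit and the plus-strand starts to the right, and in 103 rows the summit falls between them.

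In most pairs the summit lay between the starts, at 103 of 140 (73.6%, 65.5 to 80.7). The rows of the plot of starts around summits show this as a minus-strand point on the left and a plus-strand point on the right. The median distance was 96.0 bp to the nearer start and 204 bp to the farther one. At promoters of 1 direction, where the rule asks for only 1 start, it was 170 bp to the nearest start. The rule sets limits to all of these distances, and they are not like for like between the classes. The median distance from the midpoint of the starts was 59.0 bp, and 60 summits (42.9%) lay within 50 bp of the midpoint. The nearer start was on the minus strand in 71 of the 140 (50.7%, 42.1 to 59.3), so neither side of the pair stood out.

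The place of the summit changed with the spacing of the pair. Among head-to-head pairs with starts 1 to 100 bp apart, 2 of 20 summits fell between the starts and 15 of 20 in a 5′ UTR. Up to 200 bp it was 7 of 12 between the starts, up to 300 bp 39 of 44, up to 400 bp 17 of 20, up to 600 bp 29 of 30, and up to 1000 bp 7 of 7, each class beginning where the one before ends. Where head-to-head starts are more than 500 bp apart, the 500 bp rule allows a summit only between them. The 7 of 7 was therefore fixed in advance, and so was part of the 29 of 30. A narrow pair leaves little room between its starts, so part of the remaining order follows from the geometry, and how much was not tested. Over all 140, 78 summits lay outside protein-coding genes (55.7%), 35 in a 5′ UTR (25%) and 25 in an intron (17.9%). A single summit lay in a 3′ UTR, that of CG33947 beside the pair of Irbp18 and APP-BP1, and a single one in coding sequence, that of fliI beside tty.

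The strongest of the 140 had signals close to those at the end of the first 200 ranks. Signal is the peak caller's own value for the pooled reads, and here it ran from 72.7 to 181 with a median of 94.1, beside medians of 95.3 at promoters of 1 direction and 96.3 away from starts. Rank 217 was the summit of ND-ASHI, a subunit of respiratory complex I, and Fum1, a fumarase of the citric acid cycle (chrX:6679301-6679454, signal 181). Rank 220 was that of Mkk4, a kinase upstream of JNK, and SLIRP2 (signal 180), and rank 225 that of Gcn5, a histone acetyltransferase, and ver, a telomere-capping protein (chr3L:12524087-12524482, signal 178). The last 3 were at CG15027 and Dbct (rank 2103, signal 73.0), Krn, a ligand of the EGF receptor, and CG7484 (rank 2121, 72.7), and HP4, a heterochromatin protein, and CG8209 (rank 2122, 72.7).

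Values on either side of the thresholds differed little. Just before the first rank taken stood the divergent pairs of Elp6 and Dic1 (rank 184, signal 192), Snx21 and aph-1 (rank 192, 189), and stg and CG45544 (rank 196, 187). In the pooled list just after the last kept peak came Trs20 and elg1 (rank 2140, 72.4), and CG5846 and CG4658 (rank 2153, 72.3). At the distance limit, the farther start lay 481, 489 and 492 bp from the summit at CG14968 and ZnT63C, CG8046 and Rad51D, and Lip3 and CG34309, all inside. It lay 505, 506 and 511 bp away at CG14053 and Mct1, mth and Ptpmeg, and Ifrd1 and CG8814, all outside.

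The share of divergent-pair summits showed no steady order along the ranks after 200. In bins of 200 ranks it lay between 5.0% (10 of 200, ranks 1801 to 2000) and 10.5% (21 of 200, ranks 1601 to 1800, 6.62 to 15.6), where the interval of the lowest bin was 2.42 to 9.00. In the first 200 ranks it was 12.5% (25 of 200, 8.26 to 17.9), and those 25 are not among the 140. In the pooled relaxed list, which mixes peaks with background, it was 6.42% for ranks 2134 to 4266, 4.78% to rank 8532, 2.72% to rank 17064 and 1.28% to rank 30000. The share of promoters of 1 direction over the same 4 ranges was 30.4%, 26.0%, 18.6% and 13.0%.

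Of the 140 summits, 81 (57.9%, 49.2 to 66.1) overlapped a region among the 2133 highest-ranked of both replicates, against 53.0% at promoters of 1 direction, 57.3% away from starts and 55.9% of all summits after rank 200. Over all IDR peaks, the first 200 included, the share was 60.0%. The ranks that chose the summits come from the pooled reads of the same replicates, so this is a description and no independent check. The share was 56 of 61 (91.8%) in the upper part of the list, from the first rank taken to the middle of the list, and 25 of 79 (31.6%) in the lower part. All summits of the upper part gave 88.2%, and 10 of the 140 were in the top regions of neither replicate.

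The replicates did not hold the divergent pairs at equal ranks. Replicate 3 had 111 of the 140 (79.3%, 71.6 to 85.7) among its top 2133 regions and replicate 2 had 100 (71.4%, 63.2 to 78.7). At promoters of 1 direction the order was the other way, with 460 of 653 (70.4%) in replicate 3 and 508 (77.8%) in replicate 2. The median rank of the divergent pairs was 1140 in replicate 3 and 1440 in replicate 2, where those of promoters of 1 direction were 1350 and 1130. The rank was better in replicate 3 for 83 of 139 divergent pairs (59.7%, 51.1 to 67.9), against 44.2% (40.3 to 48.1) of promoters of 1 direction and 52.0% of summits away from starts. Promoters of 1 direction whose windows had GC content up to the 75th percentile of the divergent pairs gave 47.9% (41.5 to 54.4). Those with GC content above it gave 42.0% (37.1 to 46.9). The 2 intervals overlap, and the part of GC content in the difference was not tested.

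**Figure D2:**
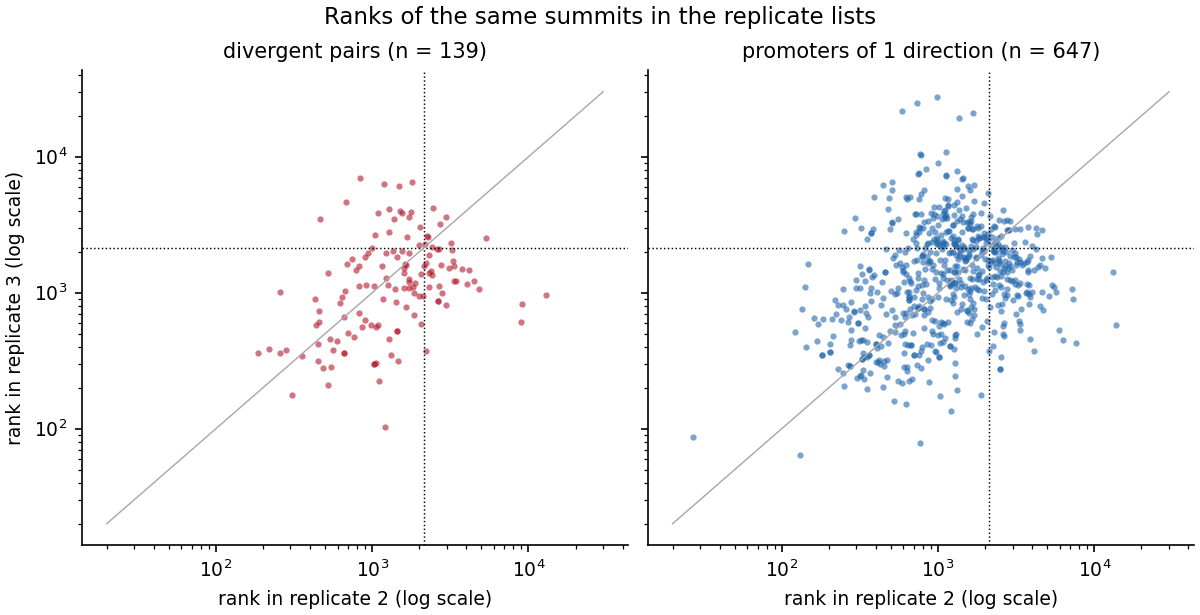
Rank of each summit's region in replicate 2 (x axis) and in replicate 3 (y axis), both on log scales, for the divergent pairs and for summits at promoters of 1 direction; lines mark rank 2133 in each list. For 83 of 139 divergent pairs the point lies on the side of a better rank in replicate 3, against 286 of 647 at promoters of 1 direction.

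Single pairs show the spread between the replicates. ND-ASHI and Fum1 ranked 362 in replicate 3 and 185 in replicate 2, and Mkk4 and SLIRP2 ranked 178 and 308. FoxK, a forkhead transcription factor, and mRpL2 (rank 276 in the pooled list) ranked 103 in replicate 3 and 1211 in replicate 2. Farther down, HP4 and CG8209 ranked 821 and 9092, and MED30, a Mediator subunit, and Rev1, a DNA polymerase of translesion synthesis, ranked 3491 and 461. The summit of CG13097 and PIG-U (rank 2093) had a region only in the replicate 2 list, at rank 5115. The plot of ranks in both replicates shows that such distances were common among the lower ranks of both classes of promoter.

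The 140 summits stood at 136 distinct pairs with 272 genes, since 4 pairs held 2 summits each. They included CG15861 and CG3770 (ranks 532 and 1663), CG9586 and tai (768 and 1768), and p38a and CG6178 (1348 and 1817). The 8 summits of the 4 pairs shared regions in the replicate lists and are not independent of each other. By chromosome, 40 summits lay on 3L, 31 on 3R, 30 on 2R, 25 on 2L, 14 on X and 0 on chromosome 4. The X thus held 10% (5.58 to 16.2), against 19.6% (16.6 to 22.9) of promoters of 1 direction and 15.1% of the close head-to-head pairs of the genome.

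Few of the divergent promoters of the genome had a summit. Of 2667 head-to-head pairs of protein-coding genes with starts at most 1000 bp apart, 144 had a summit after rank 200 within 500 bp of both starts (5.40%, 4.57 to 6.33). By the distance between the starts the share was 6.76% up to 100 bp, 3.92% over 100 and up to 200 bp, and 9.23% over 200 and up to 300 bp (50 of 542, 6.92 to 12). It was 4.25% in the next class up to 400 bp, 5.89% up to 600 bp, 1.85% up to 800 bp and 0.518% up to 1000 bp. A summit can reach both starts of a wide pair only from a narrow zone, so the last shares are also limited by the 500 bp rule. With the first 200 ranks included, 168 of the 2667 pairs had a summit within 500 bp of both starts (6.30%, 5.41 to 7.29). Counted per gene, 404 of the 5052 genes of close pairs had a summit after rank 200 within 500 bp of a start (8.00%, 7.26 to 8.78). Of the other genes it was 457 of 8893 (5.14%, 4.69 to 5.62). A gene of a close pair can be reached through its own start or share a summit with its neighbour, and the difference was not tested.

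**Figure D3:**
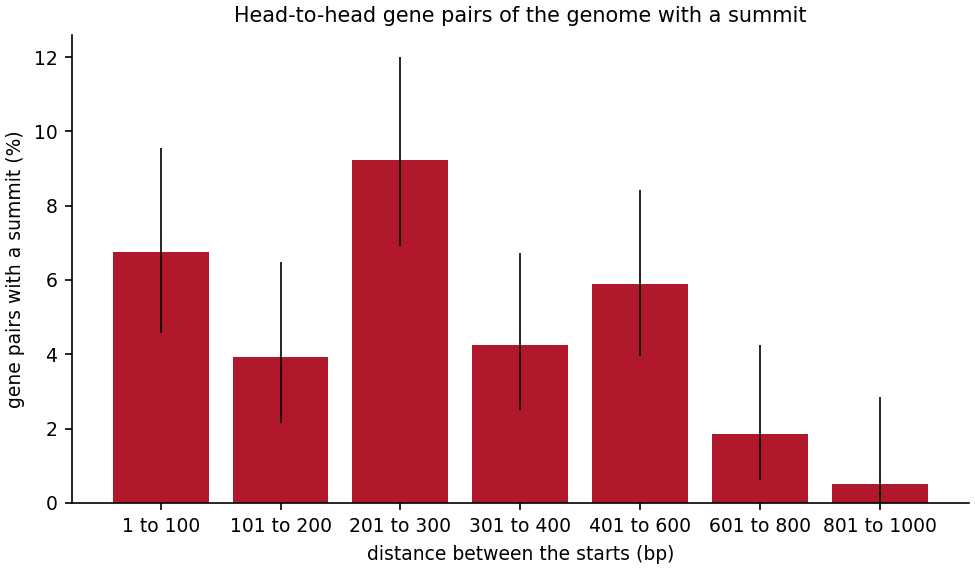
Percent of the close head-to-head gene pairs of the genome with a summit after rank 200 within 500 bp of both starts, by the distance between the starts in bp, with exact 95% intervals. The share was 9.23% (50 of 542) in the class over 200 and up to 300 bp and 3.92% to 6.76% in the other classes up to 600 bp.

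The genes of the 25 highest-ranked pairs covered metabolism, protein synthesis and turnover, membrane traffic and chromatin. Mitochondrial functions were held by ND-ASHI, Fum1, mRpL23 with CG9004 (rank 275) and mRpL2 with FoxK, both mitochondrial ribosomal proteins, CIA30 with CG7601 (rank 321), an assembly factor of complex I, and Cyt-c-d with CG31808 (rank 325), a cytochrome c. PTPMT1 with Hrd3 (rank 407) is a mitochondrial phosphatase paired with a component of endoplasmic reticulum protein degradation. Gene expression was represented by Gcn5, FoxK, Ing5 with CG7099 (rank 418), Cp190 with CG4338 (rank 455), eIF4EHP with CG18428 (rank 350) and Trmt6 with Ent2 (rank 377). Cp190 is an insulator protein, eIF4EHP a cap-binding repressor of translation, Trmt6 a tRNA methyltransferase subunit and Ent2 a nucleoside transporter.

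Traffic and signalling genes of the same set were alphaCOP, a subunit of the COPI coat (rank 249), fws, a subunit of the Golgi COG complex, with Lamtor3, a subunit of the lysosomal Ragulator complex (rank 427), Reps with l(2)gd1, which acts in endosomal sorting (rank 435), and Mkk4. Uba2 and Cds, Gk1, a glycerol kinase, with CG13876 (rank 509), Fmo-1, a flavin monooxygenase, with CG13566 (rank 508), and gb, an amino acid transporter, with CG5815 (rank 519) added enzymes and carriers. Others were CG8892 and CG34126 (rank 237), CG5390 and CG4968 (rank 336), CG5757 and CG5098 (rank 433), CG4741 and Adck1 (rank 448), and CG13018 and CG13016 (rank 494). The signals of the 25 pairs lay between 133 and 181, and all 25 were in the top regions of both replicates.

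Read against gene lists, ribosomal protein genes gave the largest counts. The background is that 272 of 13945 protein-coding genes (1.95%) were in a pair of one of these summits, and 5.32% of the genes of close head-to-head pairs. Of 93 cytosolic ribosomal protein genes, 7 were in such a pair (7.53%), among them RpL34b (rank 587) and RpL41 (rank 730). The lists go by gene symbol, and the 7 include RpLP0-like (rank 1731), which by its name only resembles a ribosomal protein gene. Of 73 mitochondrial ribosomal protein genes it was 6 (8.22%), led by mRpL23, mRpL2 and mRpL24 (rank 1147). These genes stand in close pairs more often than others, and of those that do, the share was 12.5% for cytosolic (7 of 56) and 10.3% for mitochondrial ribosomal proteins (6 of 58). The lists were made with earlier results of these data known, and no test of a list was made.

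The other lists had smaller counts. Vesicle traffic had 5 of 103 genes, led by alphaCOP, Sec23 (rank 607), a subunit of the COPII coat, and Vps33B (rank 1246). Histone modification and chromatin remodelling had 3 of 62, Gcn5, MTA1-like (rank 607) and E(z) (rank 662), the methyltransferase of Polycomb complexes. MTA1-like and Sec23 form a pair with each other and so share a single summit. RNA polymerase subunits had 2 of 30 (Polr3E and Polr2B), the spliceosome 2 of 33 (SmD3 and U2af50), and DNA replication and repair 2 of 43 (PolD2 and Rad51D). Of the list genes in close pairs, the share was 8.2% for vesicle traffic, 6.67% for chromatin and 10.5% for RNA polymerase subunits. It was 6.9% for the spliceosome and 6.67% for DNA replication and repair, beside 5.32% of all genes of close pairs. Counts this small are not a result about these lists. A single gene was found in each of 9 further lists, namely eIF4EHP, GluProRS, MED30, ND-ASHI, Tom7, Nup37, Cdc16, Cp190 and Atg18a. Of the 89 respiratory chain genes ND-ASHI was the only one (1.12%). In all, 36 of the 272 genes were on a list (13.2%, 9.44 to 17.8), against 10.7% of the genes of close head-to-head pairs and 6.23% of all protein-coding genes.

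The 3 immune lists had no gene in these pairs. None of the 15 antimicrobial peptide genes matched, of 31 Imd pathway genes or of 20 Toll pathway genes was in one, and beside a background of 1.95% a count of 0 in lists this short is not a result about them. Of these lists only 4, 19 and 7 genes stand in close head-to-head pairs at all. The same holds for the 48 proteasome genes and the 25 general transcription factor genes, of which 26 and 17 are genes of close pairs and none was in a pair with one of these summits, beside 5.32% of all genes of close pairs. After their values were seen, the stress kinase genes Mkk4, p38a and p38b (with CG9008, rank 1661) and the ferritin pair of Fer1HCH and Fer2LCH (rank 962, starts 652 bp apart) were singled out. The ferritin genes encode the heavy and light chains of the iron storage protein and are transcribed away from each other.

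The genes of the pairs were shorter than those at promoters of 1 direction, but not shorter than protein-coding genes at large. Their median length was 2520 bp, against 9810 bp for the nearest genes of summits at promoters of 1 direction, 2300 bp for all genes of close pairs and 2170 bp for all protein-coding genes. Genes known only by a CG number made up 31.2% of the 272 (25.8 to 37.1), against 34.8% of the genes of close pairs and 43.7% of all protein-coding genes.

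The DNA under the summits was poor in G and C. Windows reaching 100 bp to either side of the summits averaged 33.9% GC, against 41.5% at promoters of 1 direction, 38.9% away from starts and 42.3% at all annotated starts. Centred on the midpoint of the starts, the 144 close head-to-head pairs of the genome with a summit after rank 200 averaged 33.7% and the 2499 with no IDR summit of any rank 34.0%. Those 2499 are the pairs without a summit in all that follows. The values of the 140 summits ran from 18.4% at Wdr37 and koko (rank 978) to 55.7% at Cht2 and CG8001 (rank 2048). In a profile of 51 bp windows the GC content was 30.8% at the summit, 43.8% at 250 bp to its left and 44.0% to its right, and 48.3% and 47.5% at 500 bp. Centred alike on the midpoint, pairs with a summit had 30.8% ± 1.03 (standard error over 144 pairs) and pairs without one 33.7% ± 0.244 (over 2499 pairs). At 500 bp from the midpoint the values were 47.8% and 49.1% for pairs with a summit, and 48.5% and 49.2% for pairs without one. Low GC between the starts was shared by divergent pairs with and without a summit, and the difference at the centre was not tested.

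**Figure D4:**
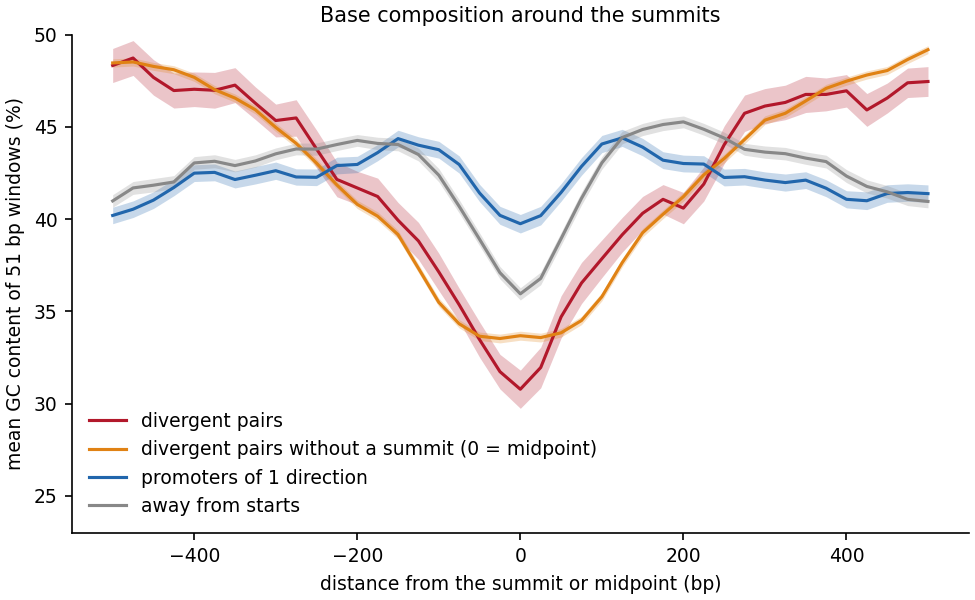
Mean GC content (percent) of 51 bp windows at each distance in bp from the summit, or from the midpoint of the starts for pairs without a summit, with bands of 1 standard error over windows. The divergent pairs fall to 30.8% at the summit, against 33.7% at the midpoint of pairs without a summit, 39.8% at promoters of 1 direction and 36.0% away from starts.

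The DRE string was as frequent at these summits as at divergent pairs in general, and rare at the other summits. TATCGATA lay within 100 bp of 12 of the 140 summits (8.57%, 4.51 to 14.5), of 8.52% of the midpoints of pairs without a summit and of 6.45% of all annotated starts. It was found at 0.766% (5 of 653) of promoters of 1 direction and at 0.0877% (1 of 1140) of summits away from starts. The shorter string CGATA, which lies inside TATCGATA and is bound by the insulator protein BEAF-32, was at 33.6% of the summits, 41.3% of the pairs without one, 23.4% of promoters of 1 direction and 37.1% of starts. Centred alike on the midpoint, pairs with a summit held CGATA at 41.7% (33.5 to 50.2), close to the pairs without one. Per kb, TATCGATA had 0.426 matches within 100 bp of the summits and 0.0893 over 300 and up to 500 bp away.

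TATAAA was the most frequent of the 12 strings searched. It lay within 100 bp of 81 of the 140 summits (57.9%, 49.2 to 66.1), against 39.0% (37.1 to 40.9) of pairs without a summit, 26.3% of promoters of 1 direction and 26.9% of all starts. Centred on the midpoint, pairs with a summit held it at 52.1% (43.6 to 60.5). Low GC content moves with it: promoters of 1 direction with GC-poor windows held it at 45.1%, and its part in the difference was not tested. Matches were denser within 100 bp of the summits, at 4.26 per kb, than beyond 300 bp, at 0.964 per kb. In the position of a TATA box, 45 to 15 bp upstream of a start and on the strand of its gene, it was found at 6 of the 274 starts of these pairs (2.19%, 0.808 to 4.71), against 3.47% of the nearest starts at promoters of 1 direction, 5.68% (5.05 to 6.36) of all starts of close pairs and 7.77% of all starts. Both starts of each pair were counted here, but only the nearest start at promoters of 1 direction. Over the 140 windows TATAAA had 120 matches, so few of them stood where a TATA box does.

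Initiator, GAGAGAG and CACACACA strings were less frequent than at promoters of 1 direction with a summit. The initiator string TCAGT lay within 10 bp of a start, on the strand of its gene, at 20 of the 274 starts (7.30%, 4.52 to 11), against 24.8% (21.4 to 28.3) of the nearest starts at promoters of 1 direction, 6.87% of all starts of close pairs and 13.1% of all starts. The 274 include the farther start of each pair, so they are not a like set to the nearest starts at promoters of 1 direction. GAGAGAG, the string of GAGA factor, lay within 100 bp of 2 of the 140 summits (1.43%, 0.173 to 5.07), against 18.2% (15.3 to 21.4) of promoters of 1 direction, 7.32% of those with GC-poor windows and 2.32% of pairs without a summit. CACACACA lay near 3.57% of the divergent-pair summits, against 11.8% of promoters of 1 direction, 5.69% of those with GC-poor windows and 1.2% of pairs without a summit.

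**Figure D5:**
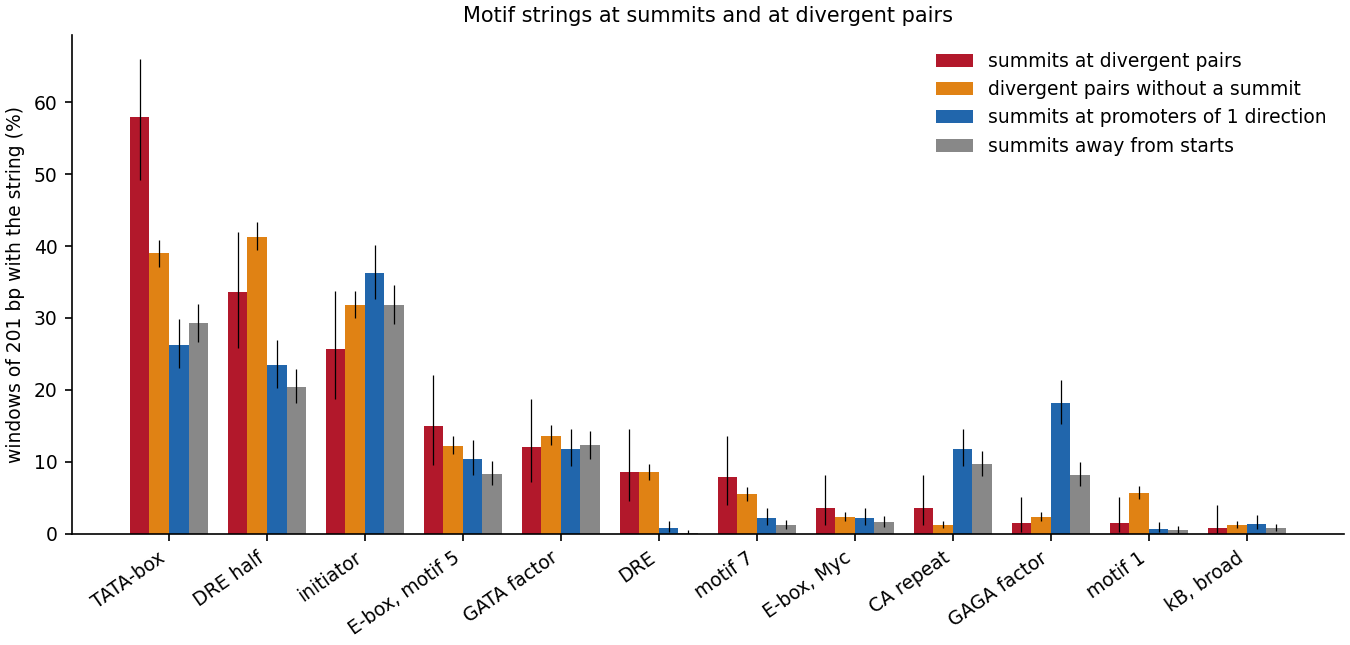
Percent of windows, 100 bp either side of the summit or midpoint, that hold each string on either strand, with exact 95% intervals, for divergent-pair summits, pairs without a summit, promoters of 1 direction and summits away from starts. TATAAA is at 57.9% of the divergent-pair summits against 26.3% of promoters of 1 direction, and GAGAGAG at 1.43% against 18.2%.

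The plot of motif shares gives the remaining strings beside these. CATCNCTA (core promoter motif 7) was at 7.86% of the 140 summits (11), 5.44% of pairs without a summit and 2.14% of promoters of 1 direction. Centred alike on the midpoint, pairs with a summit held CATCNCTA at 4.86% (1.98 to 9.76). GGTCACAC (motif 1, bound by M1BP) was at 1.43% (2 summits), against 5.64% of pairs without a summit and 5.68% of all starts. The E-box CAGCTG was at 15%, 12.2% and 10.4% of the divergent-pair summits, of pairs without a summit and of promoters of 1 direction, CACGTG was at 3.57%, 2.28% and 2.14%, and AGATAA of GATA factors at 12.1%, 13.6% and 11.8%. Centred on the midpoint, pairs with a summit held CAGCTG at 21.5% (15.1 to 29.1) and pairs without one at 12.2% (11 to 13.6). TCAGT anywhere within 100 bp was at 25.7% (18.7 to 33.8) of the divergent-pair summits, 31.8% of pairs without a summit, 36.3% of promoters of 1 direction and 43.4% of all starts.

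NF-kappaB factors bind strings of the kB type, and the only form searched, GGGRNNYYCC, was rare. In it R is A or G, Y is C or T and N is any base, and other forms of kB site were not searched. This broad kB string was found within 100 bp of a single summit of the 140 (0.714%, 0.0181 to 3.92), that of Mnat9 and CG1792 (rank 678, signal 120). It was at 1.2% of pairs without a summit, 1.38% of promoters of 1 direction and 1.33% of all starts, and its match at Mnat9 began 76 bases to the right of the summit. No match says only that these letters are not in the window. The match is shown with those at the highest-ranked summits with motif 1, motif 7 and GAGAGAG, all on the plus strand, with the string in capitals in the direction in which it was found.
kB, Mnat9 and CG1792, chr3R:31616245-31616274: agatctgttcaGGAATCCCCCttacgatgt
Motif 1, Ripalpha and RpL7, chr2L:10200979-10201008: ctccgcggccaGTGTGACCgtttggccgat
Motif 7, CG14968 and ZnT63C, chr3L:3303276-3303305: taaaggcacgaCATCACTAgtaagtcattt
GAGAGAG, FoxK and mRpL2, chr3L:11120430-11120459: actaattctcgCTCTCTCttttgctgttta

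At RpL7 and Ripalpha (rank 914), whose starts are 30 bp apart, the summit lay 4 bp from the start of Ripalpha, and the window also held CACGTG and the shorter DRE string. FoxK and mRpL2 is the pair that ranked 103 in replicate 3 and 1211 in replicate 2. CG14968 and ZnT63C, a zinc transporter gene, lies at the distance limit, with the farther start 481 bp from the summit.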

How the data were processed

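Narrow peak lists on build dm6 were used, and the dm3 lists were not. The deposited signal values and −log10 q values are the authors' own, per the file headers and the submitters' descriptions, from peak calling against a control alignment that is not analysed here. They served only to rank and describe regions within a list. A relaxed list of 30000 regions exists per replicate and for the pooled reads, and the IDR list holds 2133 peaks. The sources used here name no aligner or peak caller and hold no read counts, so depth is unknown.

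Gene starts were the 19607 annotated starts of 13945 protein-coding genes in Ensembl release 115 (BDGP6.54). Sequence came from the RefSeq copy of the same assembly. The nearest pair of a summit was the pair with the smallest summed distance. Replicate recurrence was an overlap of at least 1 bp with the top 2133 regions of a replicate. GC content and 12 strings were read in windows 100 bp either side of a summit, midpoint or start. Where a class was split by GC content, the 75th percentile of the 140 summits was the limit.

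There is 1 group of 2 replicates, so no test was made. Summits and genes are not replicates, differences between classes are descriptions, and intervals are at 95%. The labels call the replicates biological and say no more about how they were raised. The text names the genes of the 25 highest-ranked pairs, up to 3 genes of each of 21 lists, and the pairs at the ends of the ranks and thresholds. Some genes that this rule takes are not reported here. The summits, lists and strings were chosen with earlier results of these data known. Assignment to classes and the string searches were tested on simulated data. The choice of the nearest pair, its distances and the overlap with replicate regions were not tested in this way. Alternatives changed the start distance, ranks, q value, replicates, starts and windows. Windows at the midpoint, head-to-head pairs only and GC-poor promoters were chosen after seeing the data. Calculations ran in Python 3.11.15 with scipy 1.17.1, numpy 2.4.6 and pandas 2.3.3, and plots were drawn with matplotlib 3.10.9.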

Additional observations from a re-analysis of the deposited data

Results flagged for a closer look

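Outside the IDR list, 135 of the 2103 further pooled regions with a q value under 0.05 had their summit at a divergent pair (6.42%, 5.41 to 7.55). They stand out only as a signal in data that the comparisons above did not use. Their share is close to the 7.24% of the IDR peaks after rank 200. The highest-ranked of them were at Trs20 and elg1, and at CG5846 and CG4658.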

How the results depend on the processing

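Over 19 results and 14 alternatives, 164 of 202 values stayed close to the value reported and 38 moved, close meaning within its 95% interval, or within 1.5 times for the number of summits. A start distance of 250 bp gave 92 divergent-pair summits (4.76% of those after rank 200), a median spacing of 246 bp, 0% with GAGAGAG and 3.52% of close pairs with a summit. A distance of 1000 bp gave 218 summits (11.3%), 347.5 bp and 8.14%. The upper part of the list alone, to its middle, gave 61 summits, with 91.8% in both replicates, CATCNCTA at 3.28%, TCAGT at 37.7% and 2.32% of close pairs. Pooled regions with a q value under 0.05 gave 275 summits, with 29.8% in both replicates and 10.5% of close pairs. With 1 start per gene, 64.0% of the summits lay between the starts.

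Windows of 50 bp either side gave TATCGATA 4.29%, CGATA 18.6%, CAGCTG 6.43%, CACGTG 0.714%, CATCNCTA 0.714%, the broad kB string 0%, TATAAA 36.4%, TCAGT 12.1% and AGATAA 6.43%. Windows of 200 bp gave TATCGATA 15%, CGATA 67.1%, GGTCACAC 7.86%, CAGCTG 36.4%, CACGTG 9.29%, GAGAGAG 6.43%, CACACACA 8.57%, TATAAA 71.4%, TCAGT 45.7% and AGATAA 22.9%. Shorter and longer windows hold fewer and more positions by construction. Windows at the midpoint of the starts, chosen after seeing the data, gave CGATA 43.6% and moved no other string past its interval; head-to-head pairs alone, also chosen then, moved none.

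Ranking by a single replicate gave 150 summits without replicate 2 and 157 without replicate 3, and between 7.76% and 8.12% of those after rank 200, with no value moved. No paired analysis was possible because there is only 1 group. With 140 summits, strings held by 1 to 5 of them have wide intervals, and read depth cannot be given.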
